A study of Mus musculus with 9 samples.

Results

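The subunit genes of oxidative phosphorylation were followed in mouse spinal cord as all probe sets of the array that carried exactly 1 gene symbol beginning with Nduf, Sdha, Sdhb, Sdhc, Sdhd, Uqcr, Cox4 to Cox8 or Atp5. A probe set is the group of short oligonucleotides on the array that together give 1 signal for a transcript. The rule used names only and found 100 of the 12422 probe sets outside the controls, for 73 genes. Complex I had 42 probe sets of 31 genes, complex II 6 of 6, complex III 7 of 7, complex IV 23 of 15 and complex V 22 of 14. Because the rule was applied to the letters of the symbol, it also took 6 probe sets of the 4 assembly factors Ndufaf1, Ndufaf4, Sdhaf1 and Sdhaf2. A further 10 probe sets matched through 1 of several symbols and were left out. Ndufa4, Cox4i2, Atp5g3 and the subunits encoded by mitochondrial DNA were not analysed here, and the ATP synthase inhibitor Atpif1 lay outside the rule. Of the 100 members, 99 had a signal above the floor of 19.4 on at least 3 of the 9 arrays and were tested. The member that did not, Ndufb2 probe set 162473_r_at, had signals between -45.9 and 29.5.

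Oxidative phosphorylation takes place at the inner mitochondrial membrane. Complex I (NADH dehydrogenase) and complex II (succinate dehydrogenase, also an enzyme of the citrate cycle) pass electrons to ubiquinone, complex III passes them on to cytochrome c, and complex IV (cytochrome c oxidase) hands them to oxygen. The proton gradient built up on the way drives complex V, the ATP synthase. Neurons depend heavily on this supply of ATP, and mitochondrial damage in axons is a known feature of inflammatory demyelinating disease. Most subunits are encoded in the nucleus, as are all the genes described here, and complexes I, III, IV and V also hold subunits encoded by mitochondrial DNA.

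The arrays were hybridised with total RNA from whole spinal cord of B10.PL mice, 1 array a sample, in 3 groups of 3. Naive mice (replicates 2, 3 and 4) served as controls, and their labels name neither a placebo nor a time. The placebo group (replicates 1, 5 and 10) had experimental autoimmune encephalomyelitis (EAE), a model of multiple sclerosis in which an immune attack on myelin is provoked, and received placebo. The calcitriol group (replicates 6, 7 and 8) had EAE and received 200 ng of calcitriol, 1,25(OH)2D3, the hormonal form of vitamin D. In both EAE groups the cord was taken 6 h after the treatment. Calcitriol replicate 6 is titled with the D2 compound but described with D3, and it was left in the calcitriol group. The labels give no age, sex, disease score or batch and do not say that replicates were separate animals. The p-values therefore rest on the scatter between samples, part of which may be technical. Signals are given on a common scale on which the trimmed mean of each array is 194, and differences are in log2 units.

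The naive arrays stood further apart from each other than the EAE arrays did. The correlation between arrays of 1 group was taken over the tested probe sets with no exact 0 on any array. It ran from 0.834 to 0.906 for naive, 0.936 to 0.946 for placebo and 0.915 to 0.952 for calcitriol. The median SD of a member was 0.39 in naive, 0.21 in placebo and 0.23 in calcitriol cord. Naive replicate 2 held 4 of the 5 exact zeros deposited for members, which were treated as missing. Markers of the labelled tissue were present, with Snap25 of the synapse at 590 to 3390 and Mbp probe set 96310_at of myelin at 151 to 224 on all 9 arrays. The brighter Mbp probe set 96311_at gave 1135 to 2319 on 8 arrays and was deposited as exactly 0 on naive replicate 2, as were Nefl and both probe sets of Gfap. Whole cord was measured, so fewer cells of a type and less RNA per cell cannot be told apart in any of the values.

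The start regions of 6 genes, picked by their p-values, are printed here, and none of the 6 passed the test described below. They are shown because nuclear subunit genes of the respiratory chain are textbook targets of the factors NRF1, GABP and SP1. Ndufa10, Sdha, Uqcrh, Cox5a and Atp5d had the smallest p-value of complexes I to V between placebo and naive cord, and Ndufb8 had the smallest of all members between calcitriol and naive cord. The 250 bases before each start site are given 5′ to 3′ on the strand of the gene, from RefSeq, build GRCm38.p6. Capitals mark TGCGCA (the core of the NRF1 site), CCGGAAG or its reverse complement CTTCCGG (an ETS site as bound by GABP), and GGGCGG or its reverse complement CCGCCC (an SP1 site). Ndufa10 lies at chr1:92473759-92474008, minus strand, Sdha at chr13:74350241-74350490, minus strand, Uqcrh at chr4:116075071-116075320, minus strand, Cox5a at chr9:57520982-57521231, plus strand, Atp5d (1 of its 2 windows) at chr10:80142025-80142274, plus strand, and Ndufb8 at chr19:44555443-44555692, minus strand.
Ndufa10: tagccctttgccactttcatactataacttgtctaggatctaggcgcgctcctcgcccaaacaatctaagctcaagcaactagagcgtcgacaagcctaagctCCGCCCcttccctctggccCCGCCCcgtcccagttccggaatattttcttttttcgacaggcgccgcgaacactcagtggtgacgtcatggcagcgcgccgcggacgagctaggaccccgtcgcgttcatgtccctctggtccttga
Sdha: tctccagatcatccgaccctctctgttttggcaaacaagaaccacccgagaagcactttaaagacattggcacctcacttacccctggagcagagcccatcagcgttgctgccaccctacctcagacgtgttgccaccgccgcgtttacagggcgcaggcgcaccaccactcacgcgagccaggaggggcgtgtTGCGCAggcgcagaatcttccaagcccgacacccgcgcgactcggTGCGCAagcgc
Uqcrh: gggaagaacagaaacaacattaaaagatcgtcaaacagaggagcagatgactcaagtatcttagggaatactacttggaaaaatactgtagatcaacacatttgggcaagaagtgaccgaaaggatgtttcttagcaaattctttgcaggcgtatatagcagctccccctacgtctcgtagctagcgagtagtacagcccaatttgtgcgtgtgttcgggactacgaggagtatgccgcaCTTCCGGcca
Cox5a: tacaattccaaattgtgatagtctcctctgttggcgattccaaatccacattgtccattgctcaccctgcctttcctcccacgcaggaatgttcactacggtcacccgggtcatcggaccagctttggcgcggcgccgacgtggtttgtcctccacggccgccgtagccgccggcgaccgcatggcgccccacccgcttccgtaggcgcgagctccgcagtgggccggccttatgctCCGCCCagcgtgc
Atp5d: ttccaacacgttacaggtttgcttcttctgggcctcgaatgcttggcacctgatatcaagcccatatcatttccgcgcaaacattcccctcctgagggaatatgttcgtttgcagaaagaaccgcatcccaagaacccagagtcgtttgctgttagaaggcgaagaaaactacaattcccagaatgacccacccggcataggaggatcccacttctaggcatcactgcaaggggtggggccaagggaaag
Ndufb8: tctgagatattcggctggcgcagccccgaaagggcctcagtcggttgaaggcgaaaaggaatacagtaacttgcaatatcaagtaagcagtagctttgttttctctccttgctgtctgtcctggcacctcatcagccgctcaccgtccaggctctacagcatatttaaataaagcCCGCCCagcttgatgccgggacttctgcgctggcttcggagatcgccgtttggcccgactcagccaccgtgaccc
The Sdha window holds the NRF1 core at 2 places, Uqcrh has 1 ETS site, Ndufa10 has 2 SP1 sites, Cox5a and Ndufb8 have 1 SP1 site each, and the Atp5d window holds none of these letters. Of the 73 member genes, 60 had a window, 65 windows in all. The NRF1 core occurred in 13 of these 65 windows (20%), against 6.43% of all 32851 windows of the same length. The ETS site also occurred in 13 (20%), against 6.91%, and the SP1 site in 27 (41.5%), against 32.7%. The YY1 site AAGATGGC was present in 1 member window (1.54%), against 1.56%. Both strands were searched, a window could hold more than 1 motif, and the windows were not matched on base composition. These are matches of letters and not measured binding.

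The first comparison asked what EAE changed in the cord, placebo against naive. Most members had lower mean signals in EAE, by small amounts, and no member passed the test. The median difference over the 99 tested members was -0.13, with 61 lower (61.6%), beside -0.027 and 53.6% lower over all 12172 tested probe sets. With limma and Benjamini-Hochberg adjustment over all probe sets, 0 members were called at 0.05, where 171 probe sets in all (1.40%) were. Array weights, which rest the naive group mostly on replicate 3, called 5 members among 990 probe sets in all, Atp5g2 higher and Atp5c1, Cox8a, Sdha and Ndufa1 (98118_at) lower. That Ndufa1 probe set was above the floor on only 3 arrays, with a difference of -0.58 without weights, and the brighter 98117_at, at 116 to 198, had -0.076. At an unadjusted p under 0.05 there were 8 members, 7 lower and 1 higher, against 10.0% of all probe sets. The groups did not overlap for 7 members on the lower side (7.07%, background 7.83%) and for 2 on the higher side (2.02%, background 7.53%). The count of members with separate groups was thus near the background on the lower side. The median standard error of a member's difference was 0.24 and the median reach of its 95% interval 0.52 in either direction, so differences of the size of the list's median were not detectable for single members.

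The complexes differed in their medians. Complex I was lower in 30 of 41 tested probe sets, with a median of -0.25, and complex II in 4 of 6, with a median of -0.26. Complex V had a median of -0.11 with 13 of 22 lower, complex III -0.04 with 5 of 7 lower, and complex IV 0.034 with 9 of 23 lower. For complex I the median ran from -0.33 to -0.14 when single arrays were left out. The medians of complexes III and IV crossed 0 without naive replicate 2, to 0.035 and -0.097, and that of complex II went from -0.26 to -0.0098. The median of complex V was -0.016 without naive replicate 2 and -0.0046 without placebo replicate 5. The sign for complex IV also turned among plain probe sets, those with no mark of shared or incomplete probes, to -0.085, so no direction is given for it. Among plain probe sets complex V had a median of -0.26, beside -0.3 for complex I, -0.26 for complex II and -0.0098 for complex III. The distance of complex V from complexes I and II thus depended on the probe sets chosen. Differences between complexes were not tested.

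**Figure D1:**
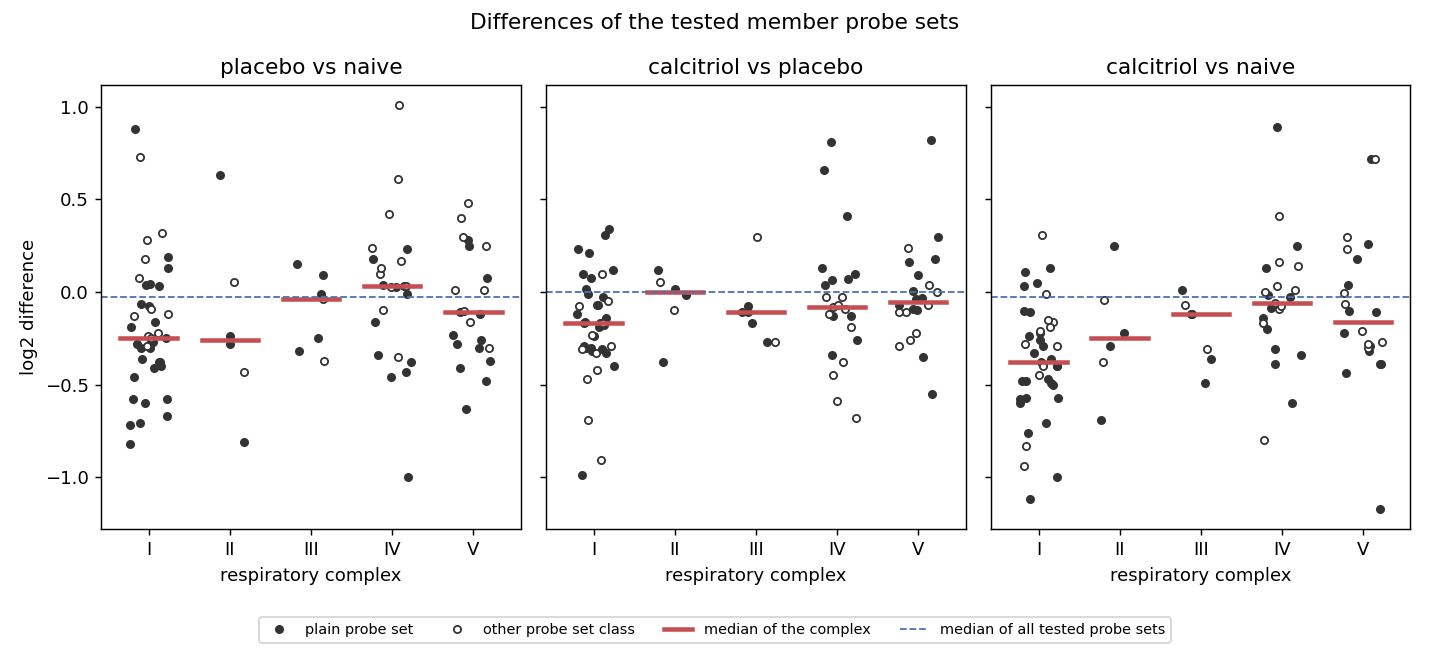
Log2 difference (vertical axis) of each tested member probe set in the 3 comparisons, by respiratory complex (horizontal axis); filled points are plain probe sets, open points other classes, red bars the median of the complex and the dashed line the median of all tested probe sets. Against naive cord, complexes I and II have medians of -0.25 and -0.26 for placebo and -0.38 and -0.25 for calcitriol, and single members spread from -1.17 to 1.01.

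**Figure D2:**
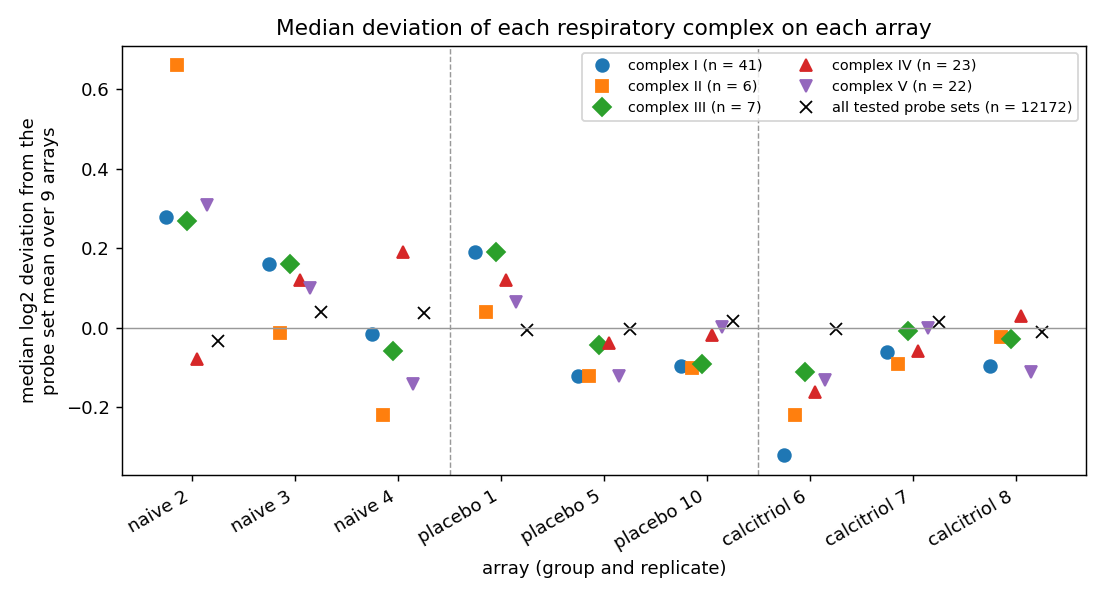
Median log2 deviation of the tested members of each complex from each probe set's own mean over 9 arrays (vertical axis), by array. Naive replicate 2 stands at 0.66 for complex II and -0.079 for complex IV, and calcitriol replicate 6 is the lowest array for complex I at -0.32.

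The spread between arrays was as large as these differences. The median deviation of the members from each probe set's own mean was 0.21, 0.14 and -0.059 on the 3 naive arrays and 0.12, -0.093 and -0.06 on the 3 placebo arrays. Naive replicate 4 thus lay among the placebo arrays and placebo replicate 1 among the naive ones. On the calcitriol arrays the deviations were -0.21, -0.044 and -0.06. Over all tested probe sets the same medians stayed between -0.033 and 0.041. Of the 83 members above the floor on all 9 arrays, 40 (48.2%) were highest on naive replicate 2, against 24.1% of all such probe sets. Calcitriol replicate 6 was the lowest array for 27 of the 83 (32.5%, against 14.2%).

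**Figure D3:**
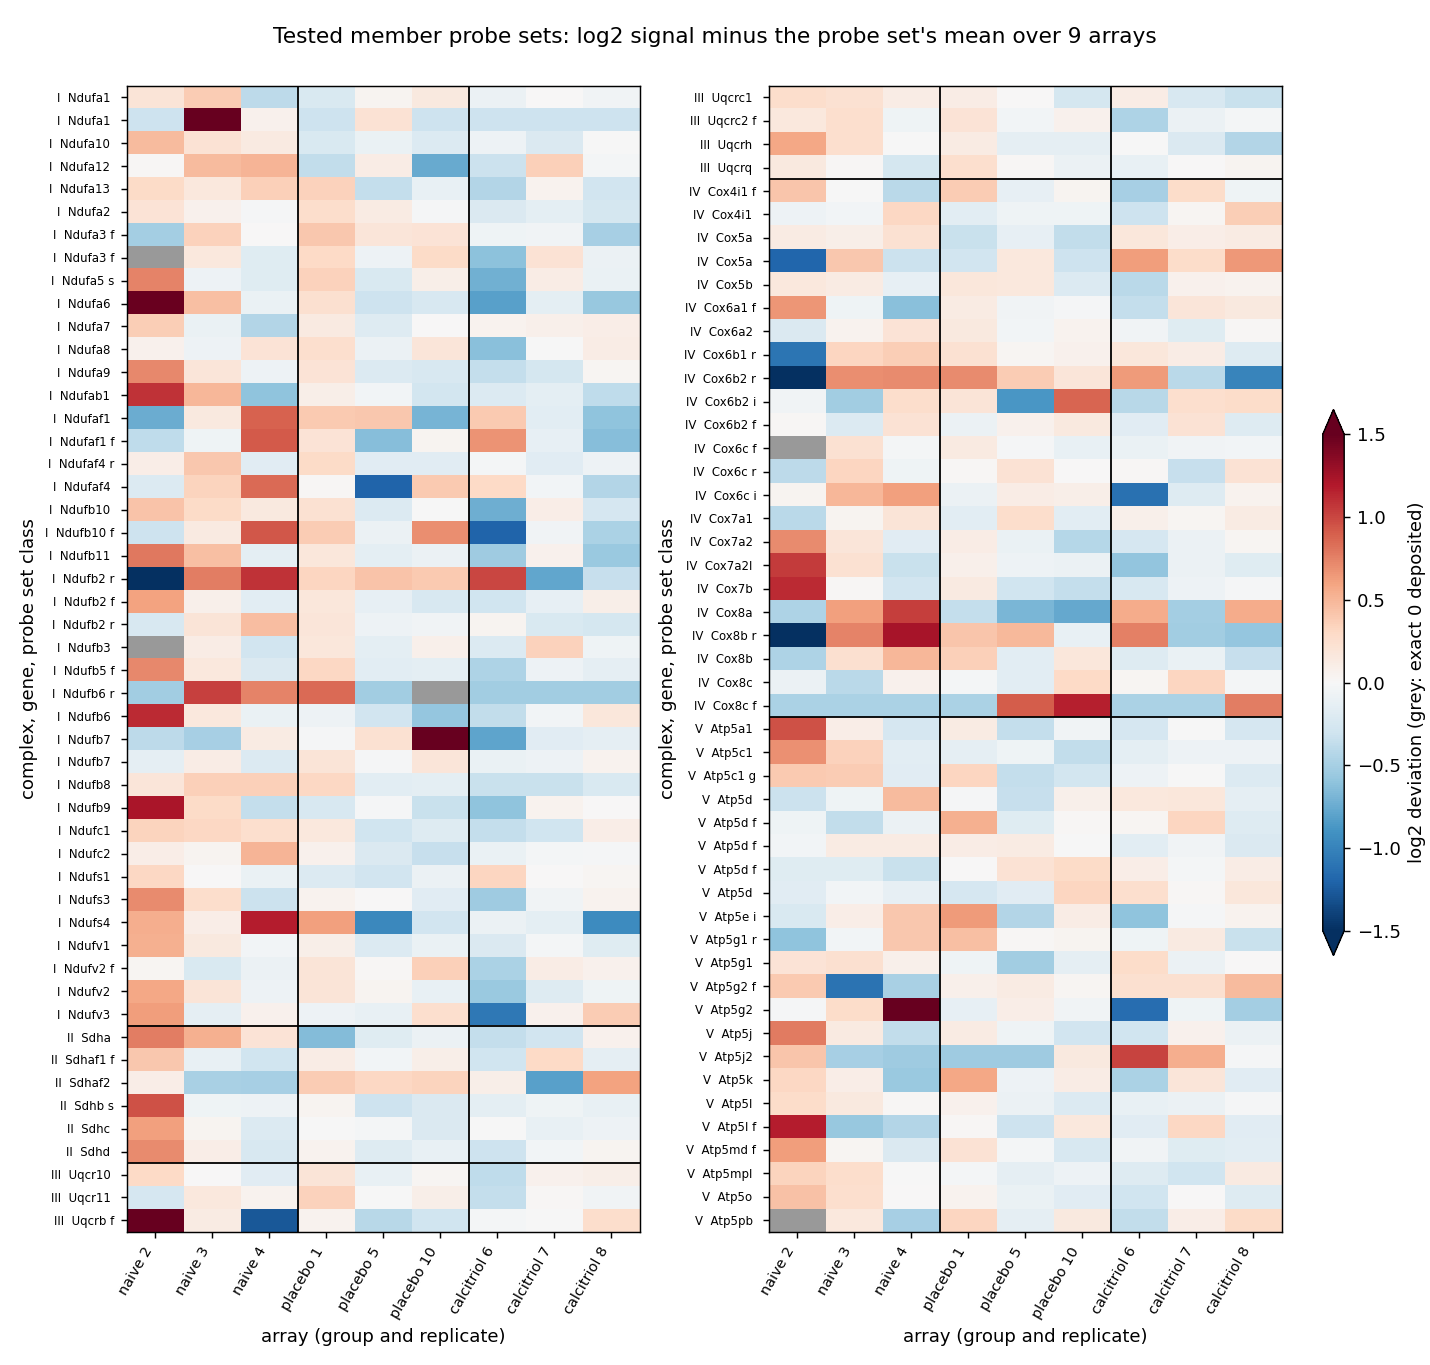
Log2 signal of every tested member (rows, by complex, gene and probe set class) on every array (columns) minus the mean of the row over 9 arrays; red is higher, blue lower, the scale stops at 1.5 in either direction, and grey marks a deposited exact 0. Red rows of complexes I, II and V gather on naive replicate 2, where several probe sets of class r are blue.

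In complex I, Ndufa10, an accessory subunit, had the smallest p-value. Its signals were 319, 267 and 251 in naive, 195, 214 and 199 in placebo and 217, 197 and 228 in calcitriol cord. All 3 naive arrays were above all 6 EAE arrays. The difference of placebo from naive was -0.46 ± 0.15 (SE; 95% interval -0.79 to -0.12; limma adjusted p = 0.272) and did not pass the test. Ndufc1, another accessory subunit, gave 314, 310 and 298 in naive and 278, 203 and 219 in placebo cord, a difference of -0.41 ± 0.18 (SE; limma adjusted p = 0.445). The naive and placebo values of Ndufc1 did not overlap. Ndufb6 probe set 92615_at gave 528, 272 and 227 in naive against 231, 200 and 163 in placebo cord, -0.71 ± 0.28 (SE; limma adjusted p = 0.389). Its naive mean rests on replicate 2, without which the difference was -0.34. The second Ndufb6 probe set, 161660_r_at, was near the floor on most arrays, with a highest signal of 56.9.

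In complex II, Sdha, the flavin-bearing subunit that oxidises succinate, had the smallest p-value of all members. Its signals were 152, 129 and 103 in naive, 56.9, 78.6 and 84.1 in placebo and 69.9, 73.6 and 93.9 in calcitriol cord. No EAE array reached the lowest naive array. The difference of placebo from naive was -0.81 ± 0.27 (SE; 95% interval -1.41 to -0.21; limma adjusted p = 0.269), and it ran from -0.96 to -0.64 when single arrays were left out. Sdhb, the iron-sulfur subunit, gave 918, 452 and 448 in naive and 485, 382 and 408 in placebo cord, a difference of -0.43 ± 0.24 (SE). The membrane anchors Sdhc and Sdhd gave -0.24 ± 0.19 and -0.28 ± 0.21 (SE). Without naive replicate 2 the differences were -0.09 for Sdhb, -0.004 for Sdhc and -0.016 for Sdhd. For Sdhb, Sdhc and Sdhd naive replicate 2 was the highest of the 9 arrays and the groups overlapped, so Sdha was the one subunit of complex II with separate groups. The assembly factor Sdhaf2 lay the other way, at 65.6, 43.4 and 43.1 in naive and 79.2, 75.4 and 76.7 in placebo cord, 0.63 ± 0.38 (SE; limma adjusted p = 0.669). Sdhaf1 had a difference of 0.054 ± 0.2 (SE).

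In complex III, Uqcrc1, a core protein of the matrix arm, gave 740, 717 and 665 in naive and 661, 618 and 513 in placebo cord. The groups did not overlap, and the difference was -0.25 ± 0.15 (SE; limma adjusted p = 0.679). Uqcrh, the hinge protein at the cytochrome c side, gave 1406, 1118 and 937 in naive and 1025, 855 and 856 in placebo cord, -0.32 ± 0.18 (SE; limma adjusted p = 0.626). Its groups overlapped through placebo replicate 1 and naive replicate 4. Uqcr11, a small subunit, had 0.15 ± 0.2 (SE).

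In complex IV, Cox5a, a nuclear subunit bound to the core, had the smallest p-value through its plain probe set 160438_at. The signals were 169, 165 and 183 in naive, 123, 143 and 120 in placebo and 175, 167 and 170 in calcitriol cord. All placebo arrays lay below all others, and the calcitriol arrays lay within the naive range. Placebo differed from naive by -0.43 ± 0.17 (SE; 95% interval -0.8 to -0.047; limma adjusted p = 0.4). The second Cox5a probe set, 161490_at, was dim, at 24.1, 72.3 and 43.7 in naive and 45, 61.2 and 44.3 in placebo cord. It had a difference of 0.23 ± 0.4 (SE) of the opposite sign, which turned to -0.18 without naive replicate 2. Cox8a, whose probe set lay close to the floor, gave 24, 50.8 and 67.9 in naive and 25.8, 20.6 and 12 in placebo cord, -1 ± 0.46 (SE; limma adjusted p = 0.496). One of the placebo values of Cox8a was under the floor of 19.4, and the groups overlapped.

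In complex V, Atp5d, the delta subunit of the central stalk, had 5 probe sets. Probe set 162343_f_at gave 202, 203 and 182 in naive, 231, 268 and 280 in placebo and 247, 226 and 249 in calcitriol cord. Every EAE array was above every naive array, and the difference of placebo was 0.4 ± 0.15 (SE; 95% interval 0.077 to 0.73; limma adjusted p = 0.335). The other 4 probe sets of Atp5d had differences of -0.12, 0.3, 0.0085 and 0.077, each with overlapping groups. So the separation was seen in 1 of 5 measurements of this gene. Atp5c1, the gamma subunit that turns within the catalytic head, gave 613, 483 and 341 in naive and 346, 365 and 294 in placebo cord on probe set 92798_at, -0.48 ± 0.19 (SE; limma adjusted p = 0.393). Atp5o, in the stalk that holds the head still, gave 853, 751 and 632 in naive and 655, 590 and 560 in placebo cord, -0.3 ± 0.15 (SE; limma adjusted p = 0.561). For Atp5c1 and Atp5o the overlap was between naive replicate 4 and placebo arrays.

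**Figure D4:**
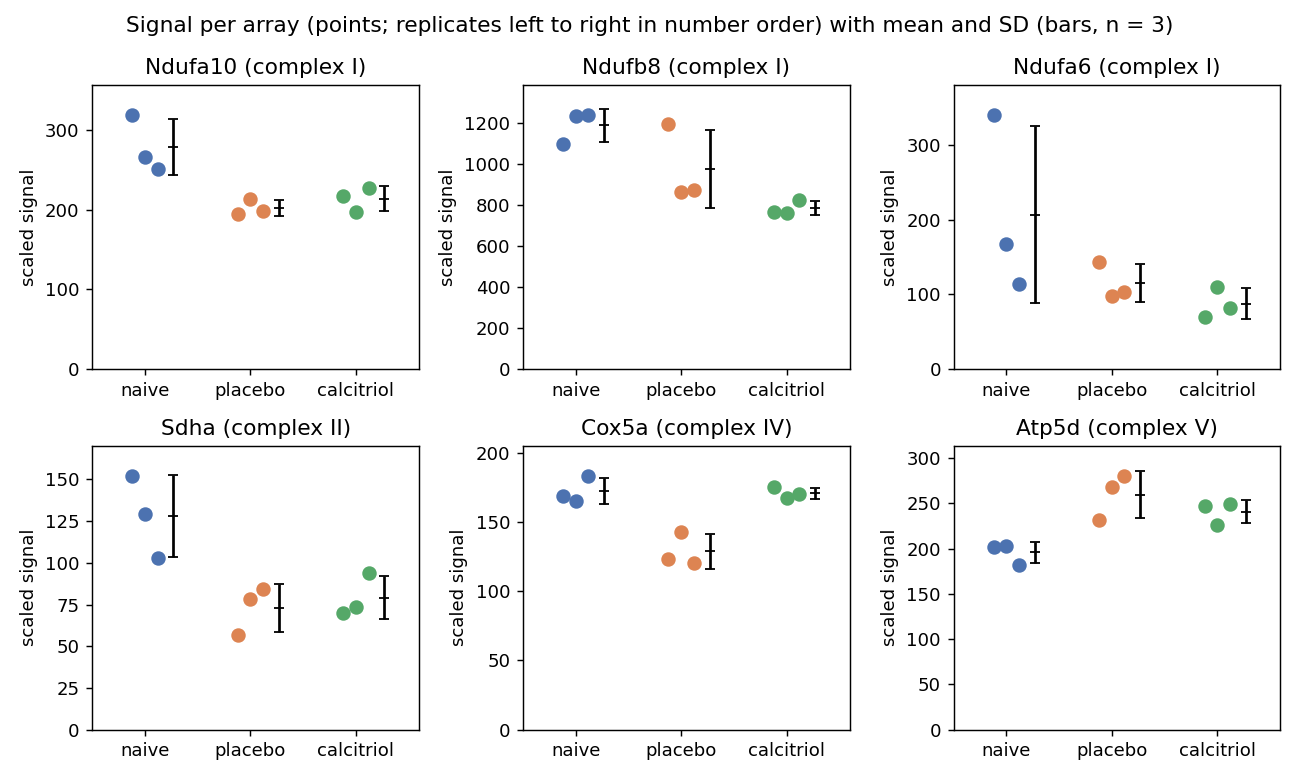
Signal on the common scale (vertical axis, from 0) of 6 members on each array (points) with the mean and SD of each group of 3 (bars): Ndufa10, Ndufb8, Ndufa6, Sdha, Cox5a (160438_at) and Atp5d (162343_f_at). Ndufa10 and Sdha are separate between naive and EAE arrays, the placebo arrays of Cox5a lie below all others, and the naive points of Ndufa6 run from 114 to 340.

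The second comparison asked what calcitriol changed in EAE cord within 6 h, calcitriol against placebo. The members again showed small differences, and limma with Benjamini-Hochberg adjustment called 0 of the 99 members, as it called 0 of all 12172 probe sets (0%), and array weights also called 0 members. At an unadjusted p under 0.05 there were 2 members, 1 in each direction, against 2.82% of all probe sets. The median difference of the members was -0.097, with 69 of 99 lower, beside -0.00045 over all probe sets. Groups did not overlap for 5 members on the lower side (5.05%, background 5.27%) and 4 on the higher side (4.04%, background 4.97%), which is near the background in both directions. By complex the medians were -0.17 for complex I with 32 of 41 lower, 0.0017 for II, -0.11 for III, -0.08 for IV and -0.056 for V. The members' median was -0.018 without placebo replicate 1, -0.036 without calcitriol replicate 6 and -0.14 without placebo replicate 5. Without placebo replicate 1 it was thus close to that of all probe sets.

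Ndufa2, an accessory subunit of complex I, was the member with the smallest p-value on the lower side. Its signals were 713, 651 and 589 in placebo and 512, 540 and 496 in calcitriol cord, beside 689, 621 and 589 in naive cord. The calcitriol arrays lay below all 6 others, and the difference was -0.33 ± 0.13 (SE; 95% interval -0.62 to -0.047; limma adjusted p = 1). Cox5a probe set 160438_at, with the signals given above, was higher in calcitriol than in placebo cord by 0.41 ± 0.17 (SE; 95% interval 0.033 to 0.79; limma adjusted p = 1). This contrast and the one before it share the placebo arrays, which were the low ones for Cox5a. The dim Cox5a probe set 161490_at, at 84.5, 66.4 and 86.1 in calcitriol cord, also lay above all 3 placebo arrays, by 0.66 ± 0.4 (SE). Both probe sets of this gene were therefore higher in calcitriol than in placebo cord, and neither passed the test.

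The other members with the smallest p-values in their complex are given by their values. Ndufb7 probe set 162323_at had signals of 35, 41.5 and 111 in placebo and 20.4, 31.3 and 32.2 in calcitriol cord, -0.99 ± 0.46 (SE), a difference carried by placebo replicate 10. Uqcrc2, a core protein of complex III, had -0.27 ± 0.17 (SE) and Uqcr11 -0.27 ± 0.2 (SE). Cox8a had 0.81 ± 0.46 (SE). Atp5d probe set 161494_f_at gave 527, 531 and 484 in placebo and 438, 469 and 420 in calcitriol cord, -0.22 ± 0.12 (SE; limma adjusted p = 1), with separate groups. Atp5j2, a small membrane subunit of the synthase, was at most 56.8 on any array and had 0.82 ± 0.42 (SE). Among the 4 succinate dehydrogenase subunits the differences lay between -0.016 for Sdhd and 0.12 ± 0.27 (SE) for Sdha.

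The third comparison set EAE with calcitriol against naive cord, and it shares the naive arrays with the first. Here 77 of 99 members were lower and the median was -0.22, beside -0.028 over all probe sets. Limma with Benjamini-Hochberg adjustment called 0 members, where it called 327 probe sets in all (2.69%). With array weights it called 13 members among 1514 probe sets, Atp5g2 102134_f_at and Cox8c 100965_at higher and the others lower. At an unadjusted p under 0.05 there were 17 members, 16 lower and 1 higher, against 12.7% of all probe sets. The groups did not overlap for 16 members on the lower side (16.2%, background 8.43%) and for 2 on the higher side (2.02%, background 8.68%). Of the 16 with lower separate groups, 9 were among the 41 tested probe sets of complex I (22%). Complex I was lower in 36 of 41 probe sets, with a median of -0.38, and this median ran from -0.45 to -0.25 when single arrays were left out. Complex II had -0.25, complex III -0.12, complex IV -0.057 and complex V -0.16. The value of complex II was -0.0082 without naive replicate 2, that of complex III -0.4 without naive replicate 4 and -0.019 without calcitriol replicate 6, and that of complex IV 0.031 without naive replicate 4.

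The members named for this comparison were chosen after their values were seen. Ndufb8, an accessory subunit of the membrane arm, came closest to the threshold. Its signals were 1095, 1232 and 1236 in naive, 1196, 861 and 870 in placebo and 764, 762 and 822 in calcitriol cord. The calcitriol arrays lay below all 6 others. Calcitriol differed from naive by -0.6 ± 0.15 (SE; 95% interval -0.94 to -0.26; limma adjusted p = 0.069). The call count depended on single arrays, with 3 members called without naive replicate 4 (Ndufa6, Ndufb11 and Ndufab1), 1 without naive replicate 2 (Ndufb8) and 1 without placebo replicate 1 (Ndufb8). Over all probe sets, 355 were called without naive replicate 4, 540 without naive replicate 2 and 275 without placebo replicate 1. Ndufa6 gave 340, 167 and 114 in naive and 69.5, 110 and 82 in calcitriol cord, -1.12 ± 0.36 (SE; limma adjusted p = 0.16). Ndufb11 gave 463, 364 and 241 in naive and 184, 279 and 181 in calcitriol cord, -0.71 ± 0.24 (SE; limma adjusted p = 0.196). In both genes naive replicate 2 was the highest array, without which the difference of Ndufa6 was -0.69, and Ndufb11 overlapped between its groups. Ndufa13, a subunit of complex I first described as a cell death regulator, gave 543, 497 and 570 in naive and 328, 464 and 365 in calcitriol cord, -0.49 ± 0.19 (SE; limma adjusted p = 0.272). Uqcrh, at 937, 811 and 693 in calcitriol cord, had -0.49 ± 0.18 (SE; limma adjusted p = 0.221) and touched the naive range at 937. Atp5o, at 514, 632 and 549 in calcitriol cord, had -0.39 ± 0.15 (SE; limma adjusted p = 0.259). Ndufc1, Ndufv2 94062_at, Atp5g2 92570_at and Ndufb10 101525_at had smaller p-values than Ndufa13 and Atp5o. Their differences were -0.48, -0.5, -1.17 and -0.58. Further probe sets of Ndufv2, Atp5g2 and Ndufb10 gave -0.0094, 0.72 and -0.83. The 1 higher member at an unadjusted p under 0.05 was Cox5a 161490_at, at 0.89 ± 0.4 (SE) with overlapping groups.

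Subunits that exist as alternative genes were described whatever their values. For subunit 6a of complex IV, the general form Cox6a1 gave 1832, 1110 and 750 in naive and 1259, 1117 and 1143 in placebo cord, 0.025 ± 0.27 (SE), and the heart and muscle form Cox6a2 had 0.039 ± 0.17 (SE). The Cox6a1 values of placebo cord all lay inside the naive range. For subunit 7a, the general form Cox7a2 gave 834, 578 and 453 in naive and 553, 476 and 378 in placebo cord, -0.38 ± 0.21 (SE). The related Cox7a2l, which joins complexes III and IV, had -0.34 ± 0.29 (SE), and the muscle form Cox7a1 0.034 ± 0.19 (SE). None of these groups were separate. The 2 probe sets of Cox4i1, the general form of subunit 4, had 0.099 ± 0.24 and -0.16 ± 0.23 (SE). Cox6b1 had 0.24 ± 0.32 (SE), and the 3 probe sets of the testis form Cox6b2 lay between 0.034 and 0.61. The Cox6b1 probe set is of class r and was lowest on naive replicate 2, at 97.3 against 182 to 269 elsewhere. Of the subunit 8 forms, the plain probe sets of Cox8b and Cox8c had 0.028 ± 0.31 and 0.18 ± 0.17 (SE). The second Cox8c probe set, 161475_f_at, was below the floor on all 3 naive arrays and gave 18.1, 50.5 and 60.4 in placebo cord, and its fitted difference of 1.01 depends on the floor. The proteolipid of the synthase ring, subunit c, was measured through Atp5g1 and Atp5g2. Atp5g1 probe set 96032_at gave 104, 107 and 95 in naive and 86.6, 63.2 and 82.6 in placebo cord, without overlap, a difference of -0.41 ± 0.25 (SE; limma adjusted p = 0.672), and probe set 161324_r_at had 0.25 ± 0.24 (SE). The 2 probe sets of Atp5g2 likewise had opposite signs, 0.48 ± 0.35 and -0.63 ± 0.44 (SE).

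Between placebo and naive cord, probe set class moved with the sign of the difference. The 63 plain members had a median of -0.27, with 46 lower. The 21 of class f, whose probes are shared within a gene family, had 0.034, and the 9 tested of class r, for which the array's design rules were dropped, had 0.24. With calcitriol the medians of all these classes were below 0, at -0.072, -0.11 and -0.26 for plain, f and r against placebo and -0.29, -0.092 and -0.0077 against naive cord. On naive replicate 2 the median deviation of class r was -0.61 for members and -0.31 for all 817 such probe sets, and on naive replicate 4 it was 0.46 and 0.28. Ndufb2, an accessory subunit of complex I, shows this within 1 gene. Its probe set 160342_r_at gave -17.5, 246 and 307 on the naive arrays, and 95131_f_at gave 863, 596 and 506. The array on which the first was lowest was the one on which the other was highest. Their differences of placebo from naive were 0.73 ± 0.83 and -0.24 ± 0.2 (SE), and the remaining tested probe set, 95132_r_at, had -0.12 ± 0.19 (SE). Cox8b probe set 160851_r_at was also lowest on naive replicate 2, with 28.7, 259 and 365 on the naive arrays. There the plain probe set 161205_at went the same way, with 53, 85.7 and 103. Ndufb10 and Ndufv2 each had a plain probe set with a negative and a class f probe set with a positive difference, -0.28 and 0.075 for Ndufb10 and -0.19 and 0.28 for Ndufv2. Exact zeros on naive replicate 2 were deposited for Ndufa3 (96915_f_at), Ndufb3, Cox6c (100550_f_at) and Atp5pb, whose lowest signals on the other 8 arrays were 195, 197, 1930 and 180, and on placebo replicate 10 for Ndufb6 (161660_r_at). The fit left these values out. With 2 naive arrays, the differences of placebo from naive were 0.18 for Ndufa3, 0.13 for Ndufb3, -0.097 for Cox6c and 0.28 for Atp5pb.

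**Figure D5:**
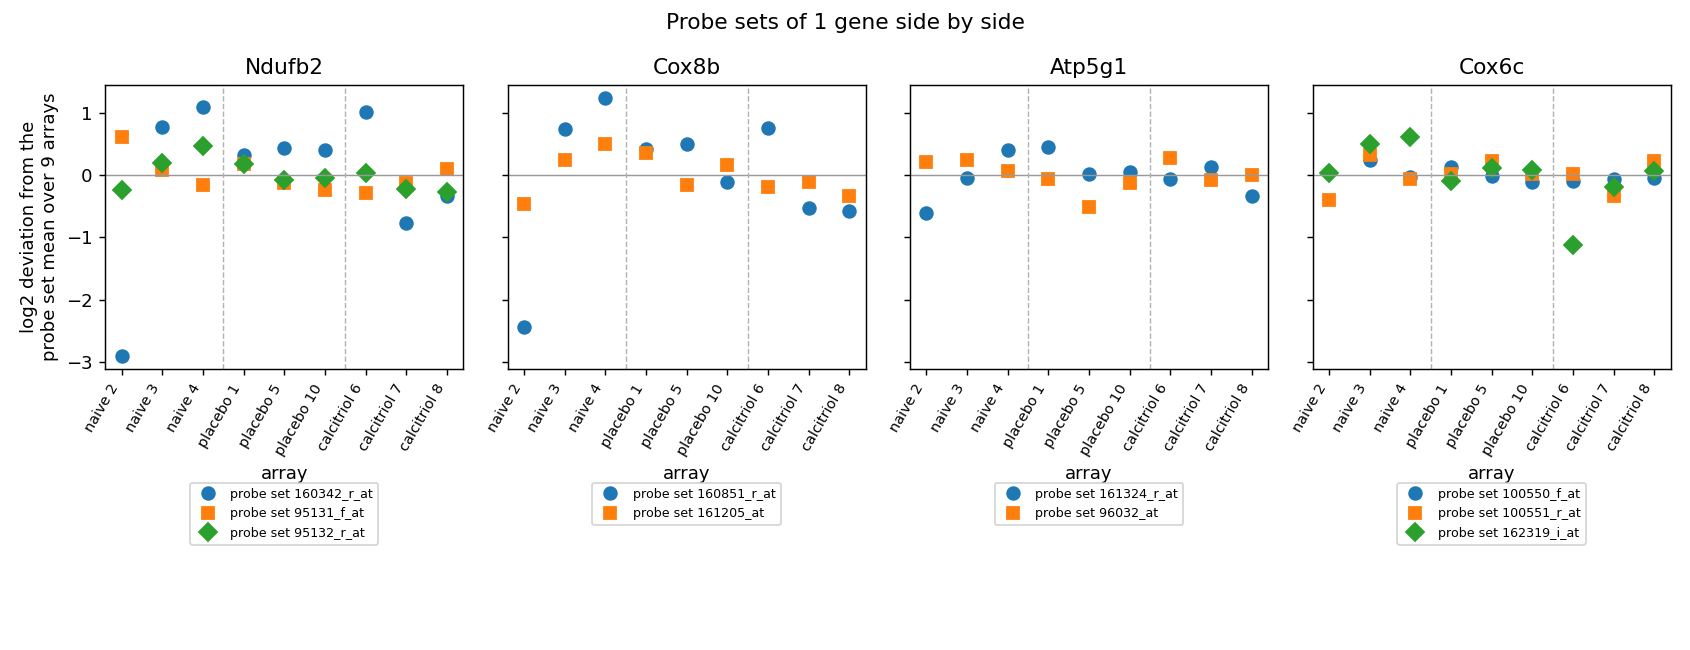
Log2 deviation (vertical axis) of each probe set of Ndufb2, Cox8b, Atp5g1 and Cox6c from its own mean over the arrays, by array; colours and markers are probe sets, and dashed lines part the groups. On naive replicate 2 the r probe sets of Ndufb2 (160342_r_at), Cox8b and Atp5g1 are lowest, while plain or f probe sets of Ndufb2 and Atp5g1 are above their mean. The plain probe set of Cox8b is lowest there too.

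Lists of further genes of mitochondrial energy metabolism also had medians below 0 between placebo and naive cord, beside -0.027 over all probe sets. None of their probe sets was called in the first or second comparison. The list of assembly factors shares Sdhaf1 and Sdhaf2 with the members. The median was -0.18 for the 24 probe sets of pyruvate dehydrogenase and the citrate cycle, with 15 lower, and -0.15 for the 15 of electron carriers such as cytochrome c, with 13 lower. Metabolite exchange had -0.088 over 20 probe sets, protein import -0.085 over 26, biogenesis regulators -0.08 over 21, assembly factors -0.0069 over 16, and mitochondrial ribosomal proteins -0.025 over 75. The lists that feed or carry electrons thus had medians of a size like the members', and the ribosomal proteins one like that of all probe sets. In calcitriol against naive cord, 3 probe sets of these lists passed the test. Ckmt1, the mitochondrial creatine kinase, had a difference of -1.36 (limma adjusted p = 0.00685), Timm9, an import chaperone, one of -1.42 (limma adjusted p = 0.0365), and Polg, the polymerase of mitochondrial DNA, one of 1.72 (limma adjusted p = 0.0247).

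Markers of several cell types moved with the same comparisons. The 25 neuron probe sets had a median of -0.56 between placebo and naive cord, with 21 lower and 1 called lower, and their summed signal, over probe sets with no exact 0 as for the sums that follow, was 14325 to 26797 in naive, 9835 to 13399 in placebo and 9081 to 9856 in calcitriol cord. Their median deviation was 0.96 on naive replicate 2, the array that was highest for 40 of the 83 members above the floor throughout, against 0.23 and 0.17 on the other naive arrays. Oligodendrocyte markers had a median of -0.35 over 16 probe sets, with 1 called lower and sums of 8257 to 16218, 8502 to 9195 and 6202 to 9261. Myeloid markers went up, with a median of 0.74 and 14 of 38 probe sets called higher, and sums of 4846 to 5437, 10571 to 12913 and 12375 to 18877. In calcitriol against naive cord the medians were -0.77 for neurons with 6 called lower, -0.57 for oligodendrocytes with 3 called lower and 1.06 for myeloid cells with 18 called higher. Between placebo and naive cord the astrocyte median was 0.019, with 6 of 14 probe sets lower. The 2 called higher were both of Gfap and were fitted without naive replicate 2. The other medians in that comparison were -0.11 for T cells, 0.087 for endothelium, -0.023 for skeletal muscle, 0.076 for adipose tissue and 0.031 for erythroid cells. No marker probe set of these lists was at the floor on all 9 arrays. The Actb probe sets at the 5′ and 3′ end, a measure of RNA length, differed by -0.25 to 0.12 in naive, -1.11 to -0.42 in placebo and -0.83 to -0.52 in calcitriol cord. The part of cell makeup and of RNA length in the differences of the members was not tested.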

How the data were processed

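Total RNA of spinal cord had been measured in 9 samples on 1-colour arrays. The deposited values are linear intensity signals per probe set. The sources used here do not state how the authors summarised and scaled these intensity values. Each array was scaled to a trimmed mean (2% off each end) of 194, exact zeros were set to missing, other values were raised to a floor of 19.4 (10%) and log2 was taken. Without the 66 controls, 12172 probe sets passed a filter (3 or more arrays over the floor) and were tested. Values were fitted with limma 3.58.1 in R 4.3.3 (3 group means, 1 fit on 9 arrays, 6 residual degrees of freedom, intensity trend, Benjamini-Hochberg over all tested probe sets, threshold 0.05). The script was tested on simulated data. Tables and figures were made with Python 3.11.15, pandas 2.3.3 and matplotlib 3.10.9. Gene symbols came from GEO's platform annotation, and all 73 member genes were found by gene ID in the RefSeq table with the same symbol. No depth applies to arrays, and 3 arrays per group limit the precision.

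The members, the marker and pathway lists, and the rules were chosen with earlier results of these data known. Named members were, per complex, the 3 with the smallest p-value in placebo against naive and the 2 in calcitriol against placebo, all forms of alternative subunit genes, the succinate dehydrogenase genes, members with an exact 0 and genes whose probe sets differed in sign. Alternatives covered scaling, floor, filter, zeros, array weights, the arrays in the fit, the choice of probe sets and leaving out each array. Coordinates are those of RefSeq on GRCm38.p6.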

Additional observations from a re-analysis of the deposited data

How the results depend on the processing

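No paired analysis was possible because the replicate numbers run across the series and no 2 groups share one. Under the alternatives other than leaving out arrays, 41 of 42 values of the members' median stayed within the SD of the median deviation between arrays of a group. In placebo against naive and in calcitriol against placebo cord this SD was about as large as the median itself. In placebo against naive cord even the move from -0.13 to -0.026 with values as deposited thus counted as no change. Dropping the intensity trend or fitting only the groups compared cannot change a median. The reported count of called members was 0 in each comparison, and 40 of 42 counts were also 0. Some of these counts were fixed in advance. The alternatives that only chose among the probe sets kept the reported fit, so their counts could not differ from 0. Array weights were 0.27, 4.92 and 0.42 for naive replicates 2, 3 and 4 and so let 1 naive array carry most of that group. In placebo against naive cord they called 5 of the 99 tested members, and 990 of all 12172 probe sets. Of the 5, Atp5g2 102134_f_at was higher, and Atp5c1, Cox8a, Sdha and Ndufa1 98118_at were lower (limma adjusted p from 0.0165 to 0.0447). In calcitriol against naive cord the weights called 13 members, and 1514 of all probe sets. Of the 13, Atp5g2 102134_f_at (1.32) and Cox8c 100965_at (0.5) were higher and the others lower. Among the lower ones, Ndufa1 98118_at and Ndufb6 161660_r_at were above the floor on only 3 arrays. With plain probe sets only, the members' median in placebo against naive cord was -0.27. The median of complex IV in that comparison was 0.17 with values as deposited, -0.14 with array weights and -0.085 with plain probe sets, and in calcitriol against placebo it was 0.067 with plain probe sets. The cause of these moves was not tested. As deposited, the median of all probe sets between placebo and naive cord was 0.1, and that of the members -0.026. Leaving out the class r probe sets was added after seeing the data.

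Leaving out 1 array at a time, the members' median ran from -0.24 to -0.077 in placebo against naive, -0.14 to -0.018 in calcitriol against placebo and -0.3 to -0.17 in calcitriol against naive cord, and the called members numbered 0 to 0, 0 to 0 and 0 to 3. The median of complex IV ran from -0.097 to 0.11 in the first and -0.12 to 0.012 in the second comparison, that of complex V from -0.1 to 0.051 in the second, and that of complex III from -0.4 to -0.019 in the third.

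Some members changed sign in placebo against naive cord, among them Ndufb2 160342_r_at, Cox6b2 160813_r_at and Cox8b 160851_r_at from 0.73, 0.61 and 0.42. With array weights the values were -0.23 for Ndufb2 160342_r_at, -0.05 for Ndufb3, -0.4 for Cox5a 161490_at, -0.0028 for Cox6a2, -0.15 for Cox6b1, -0.14 for Cox6b2 160813_r_at, -0.17 for Cox6c 100551_r_at, -0.04 for Cox7a1, -0.35 for Cox8b 160851_r_at, -0.11 for Cox8b 161205_at, -0.032 for Atp5d 161494_f_at and -0.013 for Atp5pb. As deposited they were 0.0095 for Ndufb2 95132_r_at, 0.082 for Cox6c 100550_f_at and 0.014 for Atp5d 161047_at. A floor of 20% gave -0.0019 for Cox5a 161490_at, quantile normalization -0.018 for Cox8b 161205_at, and raising exact zeros to the floor 2.18 for Cox6c 100550_f_at.

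Without single arrays the values that crossed 0 ran from -0.21 to 0.41 for Ndufb10 162280_f_at, -0.54 to 1.45 for Ndufb2 160342_r_at, -0.31 to 0.039 for Ndufb2 95132_r_at, -0.074 to 0.33 for Ndufb3, -0.72 to 0.43 for Ndufb6 161660_r_at, -0.1 to 0.31 for Cox4i1 102124_f_at, -0.18 to 0.61 for Cox5a 161490_at and -0.28 to 0.36 for Cox6a1. They ran from -0.077 to 0.13 for Cox6a2, -0.24 to 0.49 for Cox6b1, -0.28 to 1.05, -0.24 to 0.64 and -0.072 to 0.14 for the 3 Cox6b2 probe sets, -0.23 to 0.037 for Cox6c 100550_f_at, -0.048 to 0.31 for Cox6c 100551_r_at, -0.14 to 0.16 for Cox7a1 and -0.67 to 0.023 for Cox7a2l. They ran from -0.72 to 1.11 for Cox8b 160851_r_at, -0.25 to 0.23 for Cox8b 161205_at, -0.29 to 0.11, -0.043 to 0.051 and -0.1 to 0.19 for Atp5d 161047_at, 161494_f_at and 94279_at, -0.0081 to 0.5 for Atp5g1 161324_r_at and -0.056 to 0.61 for Atp5pb. In calcitriol against placebo cord, Sdhaf1 ran from -0.27 to 0.03 and Sdhaf2 from -0.7 to 0.009. Members near the floor, such as Cox8a, Atp5j2 and Cox8c 161475_f_at, have differences that depend on it.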
